A study of Bos taurus with 12 samples.

Results

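Aggrecan, the proteoglycan that gives cartilage its resistance to compression, and the enzymes and partners that govern its turnover were followed here in growth plate chondrocytes. The members were all probe sets whose platform gene symbol is ADAMTS1, ADAMTS4, ADAMTS5, ADAMTS9, HTRA1, A2M, ACAN, HAPLN1 or VCAN. The rule found 14 probe sets of 24128 on the array. They stood for 8 of the 9 listed genes, and ADAMTS9 was not analysed here. ADAMTS4, HTRA1, A2M and HAPLN1 had a single probe set each, ADAMTS1 and ADAMTS5 a pair, and ACAN and VCAN 3 each. In the gene table of assembly ARS-UCD2.0, no other gene lies between ADAMTS5 and ADAMTS1, and no other protein-coding gene lies between VCAN and HAPLN1.

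Total RNA was measured on 12 one-colour arrays of chondrocytes from the distal metacarpal growth plate of male dairy cattle younger than 10 months. All samples had been digested for 4 hours with Collagenase P and parted by density. The 6 hypertrophic zone (HZ) samples were the lightest fraction and the 6 reserve zone (RZ) samples the heaviest, each pair number holding an HZ and an RZ array. The series description speaks of independent pairs but names no animals, so every p-value reflects the variation among these 6 pairs only, and the number of arrays limits its precision.

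Aggrecan carries many chondroitin sulphate chains that draw water into the matrix. Its end domain binds hyaluronan, and link protein, the product of HAPLN1, locks that bond, so that large aggregates form. Versican (VCAN) is a related proteoglycan of loose and embryonic tissue that aggrecan replaces as mesenchyme turns into cartilage. The secreted metalloproteinases ADAMTS4 and ADAMTS5 are the best known aggrecanases, and in mouse joints ADAMTS5 is the main one. ADAMTS1 cleaves versican and, less efficiently, aggrecan. HTRA1 is a secreted serine protease that degrades several matrix proteins and dampens TGF-beta signals. A2M encodes alpha-2-macroglobulin, a broad protease trap that also captures aggrecanases. In the growth plate the aggrecan-rich matrix is remodelled as cells enlarge and the cartilage is replaced by bone.

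Values are signals recovered from the deposited ratios, in units that rest on an assumption given with the processing. Differences are HZ minus RZ on the scale of log2(signal + 16), fitted with limma with the pair as a block, and p-values are adjusted by Benjamini-Hochberg over 24016 probe sets. A gene rose or fell where its adjusted p was under 0.05, and folds on this scale understate the change of dim probe sets. The cells' labels were set against marker genes, a list written with earlier results of these data known. Over the 9155 named genes, each at its brightest probe set, 4.17% were called higher and 3.56% lower. Of 9 measured hypertrophic zone markers, 6 were called higher in HZ (MMP13, IHH, ALPL, PTH1R, MEF2C and SCIN) and COL10A1 was not. COL10A1 was bright in both zones, with a mean signal of 21619.6 on HZ arrays and 20146.6 on RZ arrays. The other uncalled markers were bright in both zones too: SPP1 averaged 18261.1 in HZ and 14726.6 in RZ, and IBSP 11709.9 and 10723. Of 5 reserve zone markers, 4 were called lower in HZ (SFRP5, PTHLH, APOE and CLU). The remaining marker, GDF5, gave 0.19 (limma adjusted p = 0.696), with 3 pairs higher and 3 lower in HZ. Among 7 chondrocyte markers 1 fell (MATN1), and COL2A1, the main cartilage collagen, averaged a signal of 25060.2 on HZ arrays and 23571.9 on RZ arrays.

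In HZ, transcripts of the aggrecanase ADAMTS4 and of the serine protease HTRA1 fell to 0.31 and 0.32 of their RZ levels. None of the 14 probe sets rose. ADAMTS1 at its bright probe set and A2M were higher in HZ in 6 of 6 pairs but did not pass (limma adjusted p = 0.0533 for each). The dimmer ADAMTS1 probe set was higher in HZ in 4 of 6 pairs (adjusted p = 0.618). Aggrecan, link protein and versican did not pass at any of their 7 probe sets, and ADAMTS5 was near the lower limit of the signal.

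**Figure D1:**
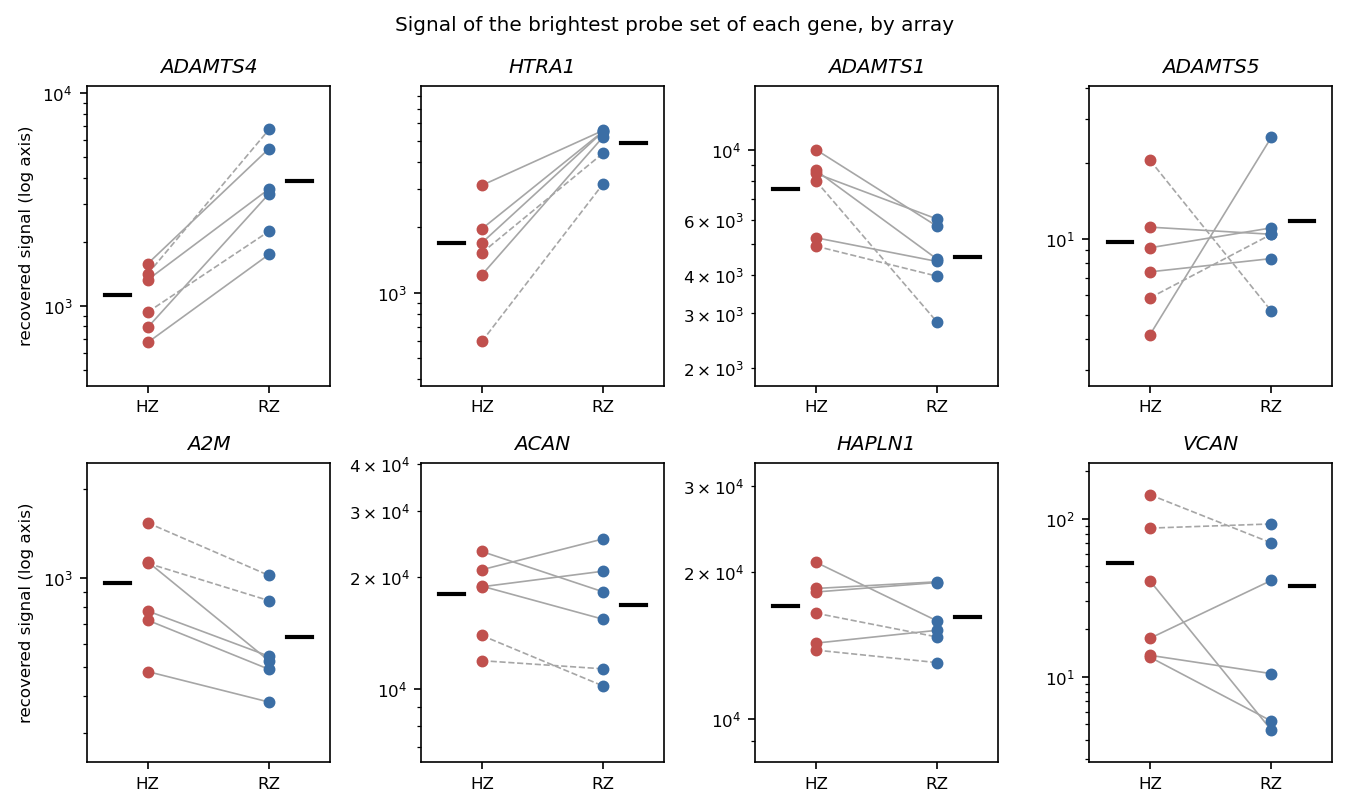
Recovered signal (log axis, arbitrary units) of the brightest probe set of each of the 8 genes on the 6 HZ and 6 RZ arrays. Grey lines join the arrays of a pair (dashed for pairs 1 and 2) and black bars are zone means. All lines of ADAMTS4 and HTRA1 run lower in HZ without overlap between the zones, whereas those of ADAMTS1 and A2M run higher in HZ with overlap.

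ADAMTS4 had signals of 673 to 1578 on the HZ arrays, with a median of 1130, against 1744 to 6733 on the RZ arrays, with a median of 3451. The zones did not overlap, with HZ-6 the highest HZ array and RZ-3 the lowest RZ array. Zone means were 1119 ± 368 for HZ and 3849 ± 1914 for RZ (SD, n = 6). The difference was -1.68 ± 0.18 on the log2 scale (SE; 95% interval -2.07 to -1.29; limma adjusted p = 0.00156), or 3.21-fold lower in HZ. Within the pairs it ran from -2.24 in pair 1 to -1.25 in pair 2, and it was below 0 in 6 of 6. ADAMTS4 ranked 43 by p among the 24016 probe sets.

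HTRA1 had signals of 598 to 3117 on the HZ arrays, with a median of 1611.5, against 3169 to 5571 on the RZ arrays, with a median of 5358. The zones stayed apart by a narrow margin, between HZ-3 and RZ-1. These arrays are of different pairs, and within pair 1 the signal was 598 on HZ-1, against 3169 on RZ-1. Zone means were 1686 ± 844 for HZ and 4893 ± 956 for RZ (SD, n = 6). The difference was -1.66 ± 0.20 (SE; 95% interval -2.12 to -1.21; limma adjusted p = 0.00301), or 3.17-fold lower in HZ. It was below 0 in 6 of 6 pairs, from -2.38 in pair 1 to -0.83 in pair 3.

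These 2 genes were the 2 of 14 member probe sets called lower, and 0 were called higher. Over all probe sets tested, 2.96% were called lower and 3.26% higher, 6.22% in all. The 14 had a median difference of 0.15, beside -0.01 for all probe sets tested. The same 2 probe sets were the members whose zones did not overlap, both with HZ lower, against 1.21% of all probe sets (1.68% had HZ higher without overlap). The same sign in all 6 pairs was found for 2 members higher in HZ (background 6.85%) and 2 lower (background 7.15%).

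Markers of other cell types also differed between the zones, and in RNA from many cells fewer cells of a type and less RNA per cell cannot be told apart. Of 8 fibroblast and perichondrium markers, FBN1 and PDGFRA fell, and the summed signal of the list was 3487 to 5859 in HZ and 5817 to 20569.7 in RZ, lower in HZ in 6 of 6 pairs; POSTN was under a mean signal of 16 in both zones. Of 8 granulocyte and lymphocyte markers, CATHL1, CD2, NKG7 and PTPRC fell. The list summed to 456 to 1839 in HZ and 663 to 8966 in RZ, also lower in HZ in 6 of 6 pairs. Its brightest marker, CATHL1, averaged 277 in HZ and 1774 ± 2377 in RZ (SD, n = 6). Among the uncalled markers, LTF gave 0.39, higher in HZ in 4 of 6 pairs, and S100A8 was higher in HZ in 3 of 6. S100A9 and CD3E were each lower in HZ in 5 of 6 pairs. Of 7 endothelial markers PECAM1 fell, and the sum was 214 to 572 in HZ and 519 to 762 in RZ. PECAM1 was the brightest of them, averaging 163 in HZ and 350 in RZ, and weighs most in the sum. The median difference of the 7 was -0.03, and VWF was under a mean signal of 16 in both zones. Of 8 macrophage and osteoclast markers, CSF1R, C1QA, C1QB, AIF1, CTSK and ACP5 rose. CD68 gave 0.14 (limma adjusted p = 0.643), and CD14 gave -0.81 (adjusted p = 0.103), lower in HZ in 5 of 6 pairs. The list summed to 8445 to 11133 in HZ and 3316 to 7490 in RZ, higher in HZ in 6 of 6 pairs. Its brightest marker, CTSK, averaged 6683 in HZ and 2522 in RZ. Of 8 smooth muscle and pericyte markers ACTA2 and DES rose. TAGLN was lower in HZ in 6 of 6 pairs but did not pass (-0.77, limma adjusted p = 0.0799). The sums of this list were 1310 to 3935 in HZ and 1302 to 4385 in RZ, higher in HZ in 2 of 6 pairs. Of 4 red cell markers 0 passed, with sums of 25.3 to 113 in HZ and 72.0 to 183 in RZ. The part of these cells in the fall of ADAMTS4 and HTRA1 was not tested.

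The ratio of 3′ to 5′ probes of actin, which rises with RNA degradation, was also higher in HZ in 5 of 6 pairs. Its log2 value was 2.27 to 3.96 in HZ and 1.77 to 2.87 in RZ, and for GAPDH it was -0.088 to 1.46 in HZ and -0.20 to 0.50 in RZ, also higher in HZ in 5 of 6 pairs. The ratio of EF1A went the other way, at -2.99 to -1.81 in HZ and -2.65 to -1.95 in RZ, and was higher in HZ in 1 of 6 pairs. The part of RNA quality in the results was not tested. Without pairs 3 and 4, whose HZ arrays had the highest GAPDH ratios, ADAMTS4 gave -1.83 and HTRA1 -1.87 (limma adjusted p = 0.0409 for each).

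ADAMTS1 was read by a bright and a dimmer probe set. The bright one had signals of 4932 to 10054 on the HZ arrays, with a median of 8207, against 2812 to 6021 on the RZ arrays, with a median of 4441. The zones overlapped through HZ-2 and HZ-3, which lay among the RZ arrays. The difference was 0.72 ± 0.19 (SE; 95% interval 0.30 to 1.14) and was above 0 in 6 of 6 pairs, from 0.25 in pair 3 to 1.5 in pair 1. It did not pass over all probe sets (limma adjusted p = 0.0533). It passed without pair 3, at 0.81 (adjusted p = 0.0496). The dimmer probe set gave 0.51 ± 0.50 (SE, adjusted p = 0.618), with 2.37 in pair 6 and -2.28 in pair 3. Its signals ran from 237 to 2346 in HZ and from 313 to 1411 in RZ.

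ADAMTS5 gave little signal at either probe set. The one with the higher mean ran from 4.16 to 20.6 in HZ, with a median of 8.31, and from 5.16 to 25.4 in RZ, with a median of 10.4. It lay at or under 16 on 10 of 12 arrays. The other ran from 4.30 to 40.6 in HZ and from 1.90 to 11.3 in RZ, and lay at or under 16 on 11 of 12 arrays. The differences were -0.11 ± 0.21 (SE; 95% interval -0.59 to 0.37; adjusted p = 0.829) and 0.27 ± 0.18 (SE; 95% interval -0.12 to 0.67; adjusted p = 0.411). At such signals the added 16 dominates and a difference may not be detectable. Of 3515 probe sets with a mean signal up to 16, 0.484% were called, against 7.20% of those above it.

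The zone differences of ADAMTS4 and ADAMTS1 were compared with each other within pairs, at the brightest probe set of each. The difference of ADAMTS4 was lower than that of ADAMTS1 in 6 of 6 pairs, by -2.40 ± 0.86 (SD, n = 6; exact sign-flip permutation test, two-sided p = 0.031, adjusted over 3 comparisons p = 0.0469). The smallest p possible with 6 pairs is 0.031. The adjusted p is under 0.05 only because the comparison of ADAMTS4 with ADAMTS5 had the same p. It therefore gives no support beyond the unadjusted p. With a constant of 1 in place of 16 the gap of ADAMTS4 to ADAMTS1 was -2.42, with the same unadjusted p of 0.031 (exact test). Its adjusted p was 0.09375, because the p of ADAMTS4 against ADAMTS5 rose to 0.0625. The other 2 of the 3 comparisons set ADAMTS4 and ADAMTS1 against ADAMTS5, whose zone difference the added 16 holds near 0. They say nothing about ADAMTS5. The dimmer ADAMTS1 probe set was not tested against ADAMTS4. In pair 3 it gave -2.28, below the -1.35 of ADAMTS4, and in every other pair ADAMTS4 was the lower.

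A2M had signals of 483 to 1538 on the HZ arrays, with a median of 948, against 381 to 1020 on the RZ arrays, with a median of 535. The zones overlapped, but each HZ array was above the RZ array of its own pair. Zone means were 962 ± 377 for HZ and 633 ± 243 for RZ (SD, n = 6). The difference was 0.57 ± 0.15 (SE; 95% interval 0.24 to 0.91) and did not pass (limma adjusted p = 0.0533). Within the pairs it ran from 0.33 in pair 4 to 1.09 in pair 6.

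**Figure D2:**
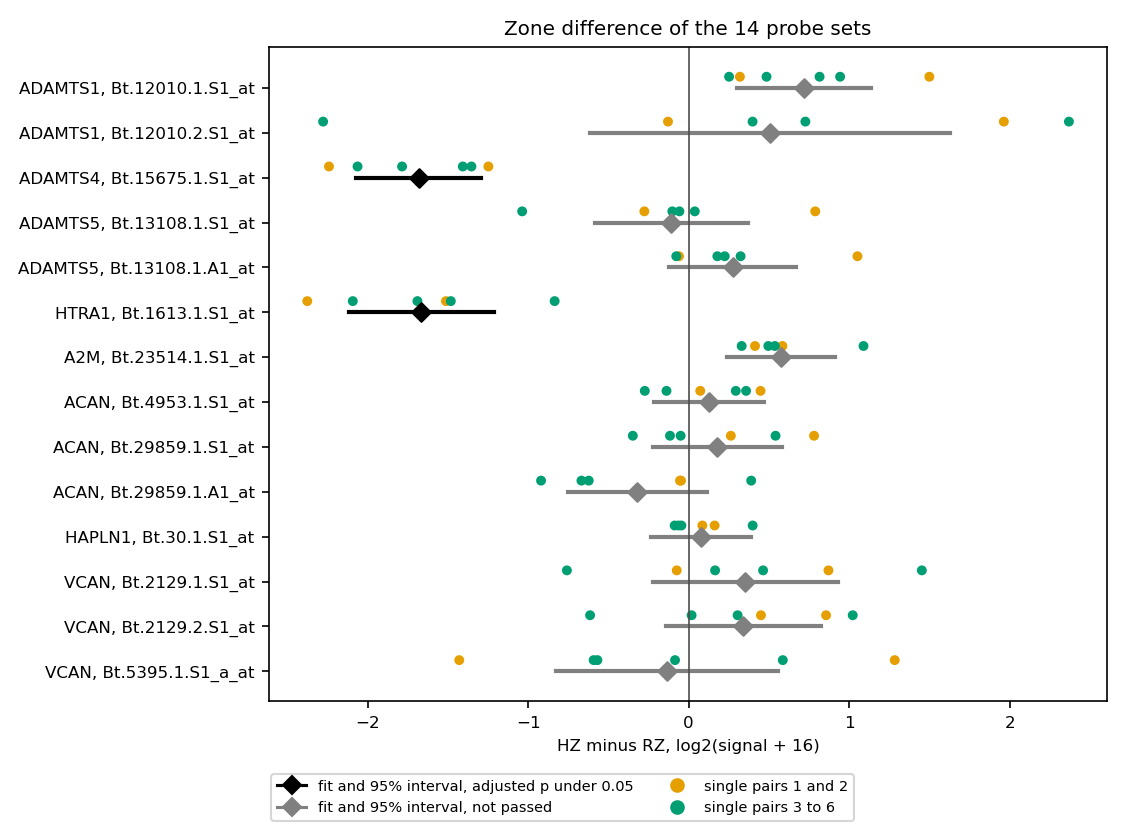
HZ minus RZ on the log2(signal + 16) scale for the 14 probe sets, with the fitted value (diamond) and its 95% interval, and the single pairs as dots above it. The intervals of ADAMTS4 and HTRA1 lie between -2.12 and -1.21. Among the other probe sets, only the intervals of ADAMTS1 (bright probe set) and A2M leave out 0.

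Aggrecan was read by 3 probe sets of very different brightness. The brightest ran from 11934 to 23358 in HZ, with a median of 18838.5, and from 10212.5 to 25237 in RZ, with a median of 16812. The zones overlapped over most of their range, and the HZ array was the higher one in 4 of 6 pairs. The difference was 0.13 ± 0.15 (SE; 95% interval -0.22 to 0.47; adjusted p = 0.697). The middle probe set ran from 902 to 3274 in HZ and from 722 to 2860 in RZ and gave 0.18 ± 0.18 (SE, adjusted p = 0.63). The dimmest ran from 2.94 to 71.4 in HZ and from 3.57 to 119 in RZ. It gave -0.32 ± 0.19 (SE, adjusted p = 0.376), below 0 in 5 of 6 pairs.

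Link protein (HAPLN1) ran from 13835 to 20919.8 in HZ, with a median of 17324, and from 13041 to 19084 in RZ, with a median of 15527. Its difference was 0.07 ± 0.14 (SE; 95% interval -0.24 to 0.39; adjusted p = 0.814), with 3 pairs higher and 3 lower in HZ. After quantile normalization its sign turned, at -0.067. The bright ACAN and the HAPLN1 probe sets are 2 of the 100 brightest on these arrays by mean signal, of which 3 were called, and compression of differences at the top of the scale was not tested.

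Versican gave low signals at all 3 probe sets. The brightest ran from 13.3 to 142 in HZ, with a median of 29, and from 4.6 to 92.7 in RZ, with a median of 25.6. Its difference was 0.35 ± 0.26 (SE; 95% interval -0.22 to 0.93; adjusted p = 0.479). The middle one ran from 13.5 to 135 in HZ and from 12 to 67.7 in RZ, with a difference of 0.34 ± 0.22 (SE, adjusted p = 0.403). The dimmest ran from 5.58 to 119 in HZ and from 12.4 to 46.6 in RZ, with a difference of -0.13 ± 0.31 (SE, adjusted p = 0.856). The array HZ-2 gave the highest signal of all 12 at each of these probe sets, at 142, 135 and 119.

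For the 4 genes with several probe sets, the zone differences of their 2 brightest were compared within pairs. The mean gap was 0.21 ± 1.31 for ADAMTS1, -0.38 ± 0.74 for ADAMTS5, -0.05 ± 0.53 for ACAN and 0.01 ± 1.15 for VCAN (SD, n = 6; exact sign-flip permutation tests, two-sided p = 0.6875, 0.28125, 0.8125 and 0.96875, all 0.96875 when adjusted over the 4 comparisons). The 95% intervals of these gaps reach beyond 1 for ADAMTS1, ADAMTS5 and VCAN, so that agreement of their probe sets is not shown. For ACAN the interval was -0.61 to 0.51, so gaps of that size remain possible. The dimmest probe sets of ACAN and VCAN were not compared.

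The arrays of pairs 1 and 2 stood apart from those of pairs 3 to 6. They differed in the smallest step between deposited ratios of dim probe sets, which was 0.0237 to 0.0318 for pairs 1 and 2, against 0.00884 to 0.0110 for pairs 3 to 6. No label names a batch, and animals and array handling cannot be told apart in this split. The levels of 3 member probe sets followed this split. The bright ACAN probe set had signals of 10212.5 to 13933 in pairs 1 and 2, all below the 15398 to 25237 of pairs 3 to 6. The dimmest ACAN probe set had 2.94 to 4 in pairs 1 and 2 and 8.80 to 119 in pairs 3 to 6. The brightest VCAN probe set went the other way, with 70.3 to 142 in pairs 1 and 2 and 4.6 to 40.7 in pairs 3 to 6. These were 3 of 14 members without overlap between the sets of pairs, against 4.53% of all probe sets.

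The zone differences were also taken within each set of pairs. ADAMTS4 gave -1.74 in pairs 1 and 2 and -1.65 in pairs 3 to 6, and HTRA1 gave -1.94 and -1.52. The bright ADAMTS1 probe set gave 0.91 and 0.62, A2M 0.50 and 0.61, and the bright ACAN probe set 0.26 and 0.06. None of the 14 passed in a test of the difference between the sets (limma interaction term, all adjusted p = 0.999, where 0.00833% of all probe sets passed); the smallest unadjusted p was 0.193, for the middle ACAN probe set.

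The genes most like ADAMTS4 and HTRA1 across the 12 arrays were found by Pearson's r over 9147 named genes, each at its brightest probe set. For ADAMTS4 they were QSOX1, an enzyme that forms disulphide bonds (r = 0.98), IFNAR2, a subunit of the type I interferon receptor (r = 0.97), and SLCO4A1, an organic anion transporter (r = 0.91). QSOX1 fell by 1.01 ± 0.16 (SE, limma adjusted p = 0.00997), IFNAR2 fell by 0.78 and SLCO4A1 fell by 1.07. For HTRA1 they were NID2, a basement membrane protein (r = 0.97), CLEC11A, a secreted growth factor of bone (r = 0.96), and MAPK8, a stress-activated kinase (r = 0.95). NID2 fell by 1.37 ± 0.23 (SE, limma adjusted p = 0.0108), CLEC11A fell by 1.15 and MAPK8 fell by 0.62. These arrays share the zones and the sets of pairs, and r was used only to rank genes. Since ADAMTS4 and HTRA1 separate the zones, genes chosen for likeness to them tend to fall as well. The falls of these genes are therefore no independent result.

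**Figure D3:**
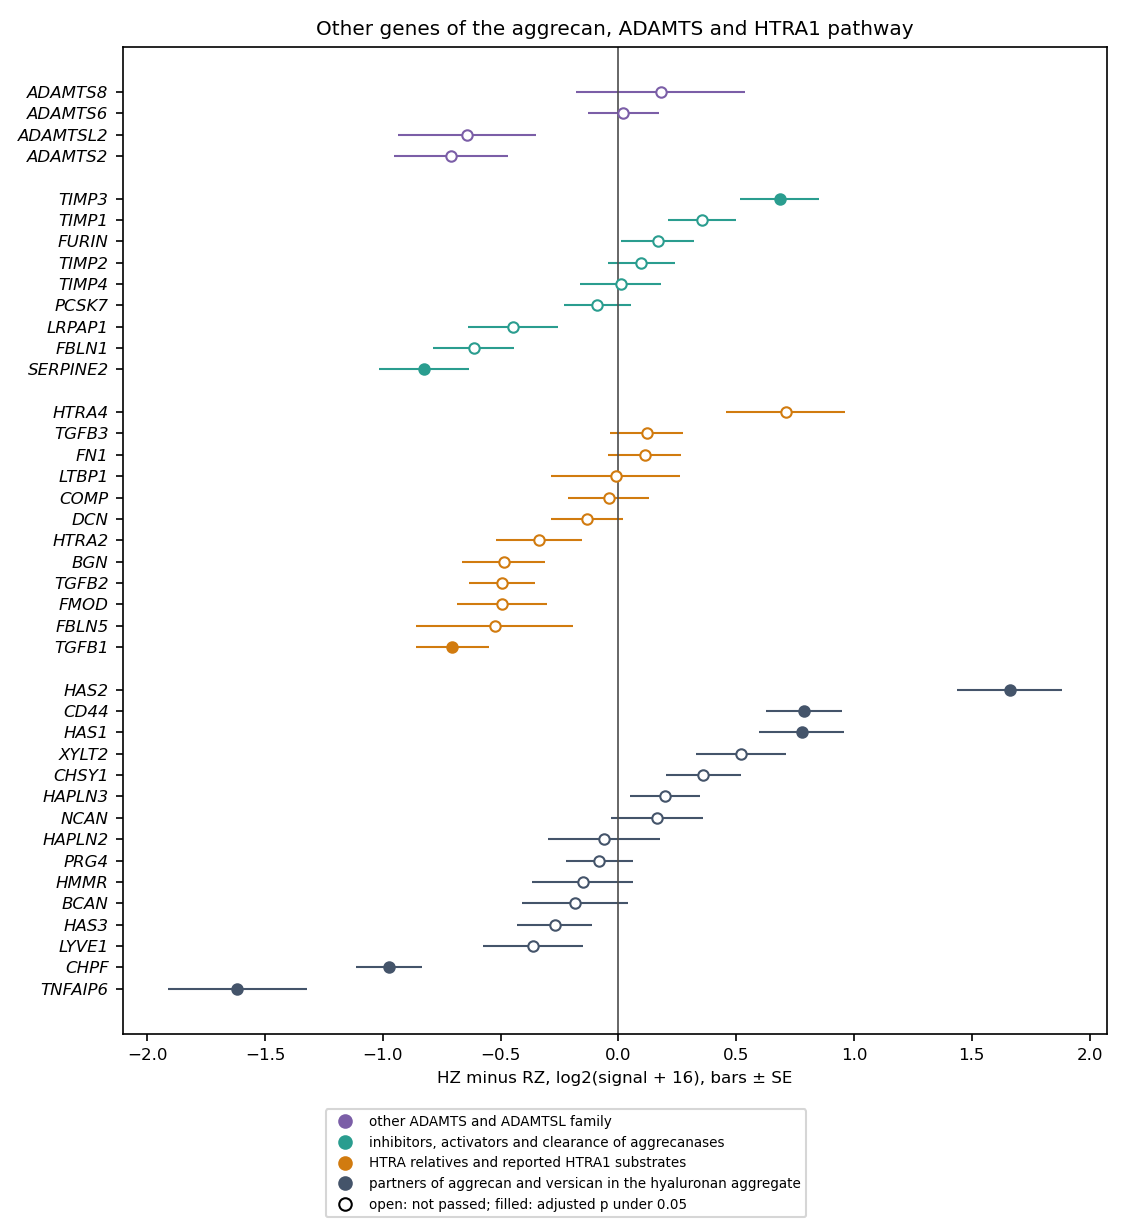
HZ minus RZ on the log2(signal + 16) scale with SE for the 40 measured genes of the 4 pathway lists, each at its brightest probe set. Filled points passed (adjusted p under 0.05). HAS2 at 1.66 and TNFAIP6 at -1.62 stand farthest from 0, both in the list of hyaluronan aggregate partners, which also holds synthesis enzymes and receptors.

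Other genes of the pathway were read in 4 lists, written with earlier results known and without a test of the list. Each gene was read at its brightest probe set, against the same background of 4.17% of named genes called higher and 3.56% lower. With so few genes in a list, the counts are a description and show nothing particular to it. Of 22 listed relatives in the ADAMTS and ADAMTSL family 4 were measured, and 0 passed (median -0.31). ADAMTS2, which trims procollagen, gave -0.71 ± 0.24 (SE, limma adjusted p = 0.118) and ADAMTSL2, a microfibril-binding relative without protease activity, -0.64 ± 0.29 (adjusted p = 0.233). ADAMTS8 and ADAMTS6 gave 0.18 and 0.02. All 4 were dim, with mean signals of 17.3 to 83.0 in either zone.

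Among 9 measured genes listed as inhibitors, activators and clearance factors of aggrecanases, 1 rose and 1 fell (median 0.01). TIMP3, the tissue inhibitor that blocks ADAMTS4 and ADAMTS5, averaged 12414 ± 3957 on HZ arrays and 7678 ± 2270 on RZ arrays (SD, n = 6). It rose by 0.68 ± 0.17 (SE, limma adjusted p = 0.0424), in 6 of 6 pairs. SERPINE2 was in this list but inhibits serine proteases, whereas the aggrecanases are metalloproteinases. It averaged 4816 ± 1524 in HZ and 8305 ± 1095 in RZ (SD, n = 6) and fell by 0.83 ± 0.19 (SE, adjusted p = 0.0342). FBLN1, a matrix protein that acts as a cofactor of ADAMTS1, gave -0.61 ± 0.17 (adjusted p = 0.0669), lower in HZ in 6 of 6 pairs. TIMP1 gave 0.35 ± 0.14 (adjusted p = 0.180). The probe sets of TIMP2, a related tissue inhibitor named after its values were seen, disagreed. The brightest gave 0.098 and did not pass (adjusted p = 0.755), whereas the other 2 fell by 0.82 and 0.93 (adjusted p = 0.0450 and 0.00997).

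Of 12 measured HTRA relatives and reported HTRA1 substrates, 0 rose and 1 fell (median -0.24). TGFB1, a growth factor of the pathway that HTRA1 dampens, fell by 0.71 ± 0.16 (SE, limma adjusted p = 0.0293), in 6 of 6 pairs. TGFB2 gave -0.49 ± 0.14 (adjusted p = 0.0695) and biglycan (BGN), a small matrix proteoglycan, -0.49 ± 0.18 (adjusted p = 0.139). HTRA4, a relative of HTRA1, was higher in HZ in 6 of 6 pairs at 0.71 ± 0.25 but did not pass (adjusted p = 0.133).

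The list of partners of aggrecan and versican in the hyaluronan aggregate also held synthesis enzymes and cell surface receptors. Of its 15 measured genes, 3 rose and 2 fell (median -0.06). HAS2, which makes hyaluronan, averaged 5057 ± 2290 on HZ arrays and 1521 ± 441 on RZ arrays (SD, n = 6) and rose by 1.66 ± 0.22 (SE, limma adjusted p = 0.00466). Its other 2 probe sets gave 0.55 and 0.28 and did not pass. CD44, a cell surface receptor for hyaluronan, rose by 0.79 ± 0.16 (adjusted p = 0.0231). HAS1, another hyaluronan synthase that rose, was named after its values were seen and gave 0.78 ± 0.18 (adjusted p = 0.0347). HAS1 was dim, averaging 75.9 in HZ and 38.9 in RZ. Its other probe set, with means of 2.11 and 2.73, gave -0.05 (adjusted p = 0.881). TNFAIP6, which modifies hyaluronan by attaching proteins to it, averaged 499 ± 196 in HZ and 1463 ± 409 in RZ (SD, n = 6) and fell by 1.62 ± 0.29 (adjusted p = 0.0142). Its other probe set fell by 1.38. CHPF, which lengthens the chondroitin chains that aggrecan carries, fell by 0.97 ± 0.14 (adjusted p = 0.00610).

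**Figure D4:**
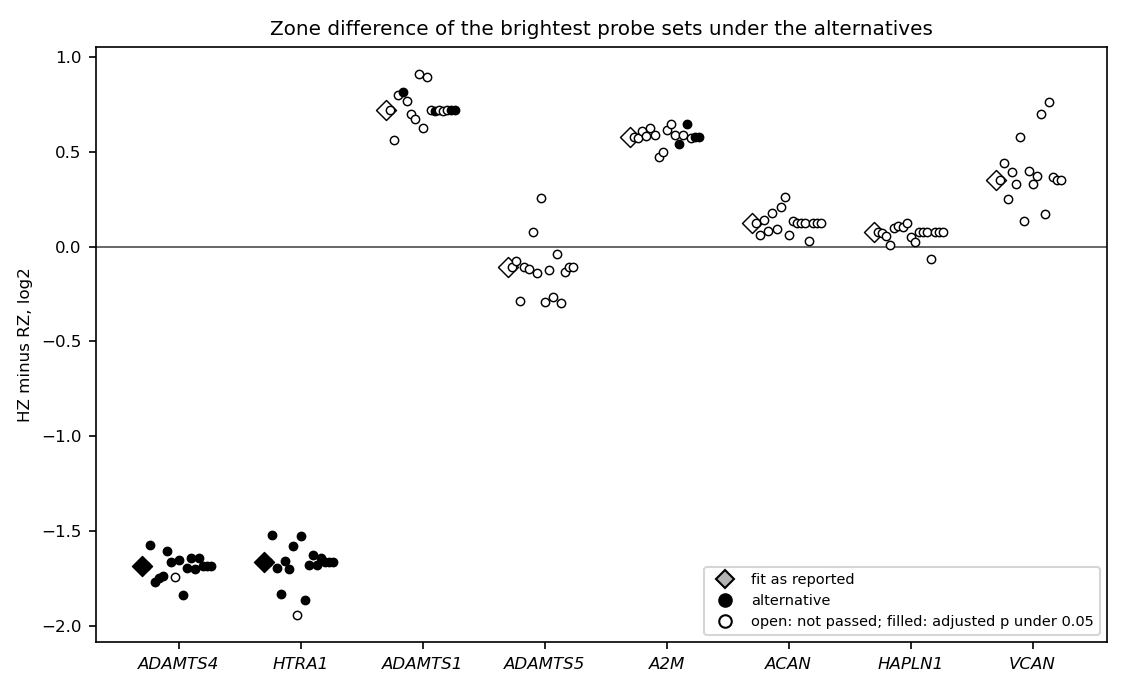
HZ minus RZ (log2) of the brightest probe set of each of the 8 genes in the fit as reported (diamonds) and under each alternative processing or choice of pairs (dots). Filled symbols passed at an adjusted p under 0.05. ADAMTS4 and HTRA1 stay between -1.94 and -1.52 in every fit and are open only where pairs 1 and 2 were fitted alone, while ADAMTS1 and A2M change between open and filled.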

How the data were processed

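The 12 arrays were assigned to a zone and a pair by their titles. The authors deposited a linear ratio for each probe set on each array. Per the labels' protocols, RNA was extracted with RNA STAT-60 and biotinylated cRNA was made with a MessageAmp II kit. Scanner software, probe summary and normalization: not given in the sources used here. The values showed that the ratio was taken over the probe set's median across arrays for 21901 probe sets and over a fixed value for 2227 dim ones. Apart from 49 values at the lowest ratio of 0.01, in 35 probe sets of which 0 are members, ratios were whole multiples of a step on each array once scaled by the probe set's divisor. Matching the steps (to within 0.0824 of a step) gave a signal for 24128 probe sets, with a median of 96.7 on each array. The unit assumes 0.1 signal units per step, an assumption without a source, which decides the weight of the added 16.

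The fit used limma 3.58.1 in R 4.3.3 (lmFit, eBayes) on the log2 scale, over 24016 probe sets without 112 controls, with the pair as a block. The series description gives the pairing. The deviations of same-numbered arrays from their zone mean correlated at 0.124 (pair 3) to 0.447 (pair 2). HZ-3 correlated more with an RZ array of another pair than with RZ-3, whereas each other HZ array correlated most with its own. Symbols came from the platform's annotation (13292 probe sets with 1 symbol, 86 with several, 10638 with none). All 8 member genes matched the RefSeq gene table of ARS-UCD2.0, used for names and neighbours. Genes outside the members were read at their brightest probe set. Named are all member probe sets, up to 4 genes per pathway list with the smallest adjusted p, called marker genes and those at the lowest level, and the 3 genes most like each called member. COL2A1, COL10A1, SPP1, IBSP, GDF5, TAGLN, CD14, CD68, LTF, S100A8, S100A9, CD3E, HAS1 and TIMP2 were named after their values were seen. Recovery and fit were tested on simulated data. The members and lists were chosen with earlier results of these data known. Alternatives were no block, other sets of pairs, other constants, the deposited ratio, 2 other normalizations, brighter probe sets only and an intensity trend.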

Additional observations from a re-analysis of the deposited data

Results flagged for a closer look

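Both probe sets of ADAMTS5 had an array far from the others of its zone. At the dimmer one, HZ-1 gave a signal of 40.6 where the next HZ array gave 9.86, a gap of 0.764 of the range of the HZ arrays on the log2(signal + 16) scale. At the brighter one, RZ-5 gave 25.4 where the next RZ array gave 11.1, a gap of 0.633 of the range of the RZ arrays. Both gaps exceed Dixon's 95% critical value for 6 samples. Chance marks about 1 in 20 groups, and 28 groups of 6 arrays were examined, with these 2 marked.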

How the results depend on the processing

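ADAMTS4 and HTRA1 kept their direction in all 17 alternatives and passed in 16. The exception was the fit of pairs 1 and 2 alone (-1.74 and -1.94, both with adjusted p = 0.301), in which limma called 0 probe sets higher and 0 lower and 2930 had an unadjusted p under 0.05. With a pair left out, ADAMTS4 gave -1.77 to -1.57, HTRA1 -1.83 to -1.52, A2M 0.47 to 0.62, ADAMTS1 0.56 to 0.81, passing only without pair 3, and the brightest ADAMTS5 probe set -0.29 to 0.078, above 0 without pair 5. ADAMTS1 and A2M passed with a constant of 64 (0.71 and 0.54), among the probe sets above the median level (0.72 and 0.57) and with an intensity trend (0.72 and 0.57), and A2M after quantile normalization (0.64); over all alternatives their adjusted p ran from 0.00978 to 0.420 and from 0.0135 to 0.502. Signs turned for ADAMTS5 in pairs 1 and 2 alone (0.26), for HAPLN1 after quantile normalization (-0.067) and for the dimmest VCAN probe set without pair 1 (0.12; -0.42 to 0.12 with a pair left out), and for the gap between the 2 brightest VCAN probe sets with a constant of 64 (-0.025); none of these passed in any fit. With a constant of 1, ADAMTS4 minus ADAMTS5 was -1.43 (exact permutation test, p = 0.0625) and ADAMTS4 minus ADAMTS1 was -2.42 (p = 0.031, as with 16). Both had an adjusted p of 0.09375, which for ADAMTS1 follows from the higher p of the ADAMTS5 comparison. With a constant of 64 ADAMTS5 minus ADAMTS1 was -0.75 (exact permutation test, adjusted p = 0.031). The values with ADAMTS5 follow the constant, since its signals lie mostly under 16.

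Over all probe sets, 782 were called higher and 712 lower. Without the replicate block the counts were 505 and 326, in pairs 3 to 6 alone 258 and 78, without pairs 3 and 4 91 and 48, with a constant of 1 368 and 215, and on the deposited ratio 315 and 163. The lower calls numbered 1120 with a constant of 64, 1374 among the probe sets above the median level and 1167 with an intensity trend. With a pair left out, 334 to 650 were called higher and 223 to 895 lower, the fewest in both directions without pair 5. Without the replicate block the 8 differences were the same, and ADAMTS4 and HTRA1 still passed (adjusted p = 0.0121 and 0.0101) where ADAMTS1 and A2M did not (adjusted p = 0.110 and 0.342). The cause of these shifts was not tested. Low signals limit what can be seen of ADAMTS5 and VCAN.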
